A study of Microtus ochrogaster with 40 samples.

Results

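Hsf5, Tent4a and Zfhx2 are 3 of the 19130 genes listed for the prairie vole (Microtus ochrogaster) in single-nucleus RNA libraries of the nucleus accumbens. They were chosen because, with counts summed over all nuclei of an animal, an earlier fit of these libraries gave them the lowest p values for animals housed with a mate against animals housed with a peer. The choice therefore used the very difference described here, so the levels of mates against peers are given as a description. Their p values and ranks say only how the genes were chosen. Tests are given for sex, for the difference between the sexes, for a class against the rest of the same animal, and for relations within groups. The last of these is not free of the choice, since the 3 genes were chosen together. In the fit made here, edgeR's quasi-likelihood model with Benjamini-Hochberg adjustment ranked Tent4a, Zfhx2 and Hsf5 2, 3 and 4 of 13696 genes, each at an adjusted p of 0.653. 1700094D03Rik came before them (p of 3.29e-05, log2 fold change -1.63). The last gene inside the set was Hsf5, at a p of 0.000227, and the next gene after Hsf5 was Mrps5, at 0.000451. The model called 0 of 13696 genes for pairing (0%) at an adjusted p under 0.05, and 7.43% had an unadjusted p under 0.05. DESeq2 called 1 gene (0.00730%), 1700094D03Rik (log2 fold change -1.72, adjusted p = 0.0292), and edgeR with blocks of 10 label numbers as a covariate called the same 1 gene (-1.88, adjusted p = 0.0191).

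The libraries came from 40 voles, 1 animal per library. There were 11 females and 11 males that had lived 16 days with an opposite-sex partner, here called female and male mates. The female and male peers, 8 and 10 animals, had spent the same 16 days with a same-sex partner. No group lived alone, and the labels give neither the age of the animals nor which of them were housed together.

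The genes belong to different families. Hsf5 encodes a member of the heat shock factor family of DNA-binding proteins, best known from the testis, where it is needed in male meiosis. Tent4a (older name Papd7) encodes a terminal nucleotidyltransferase, an enzyme that extends poly(A) tails and places occasional other bases in them, which slows their removal by deadenylases. Zfhx2 encodes a very large nuclear protein with many zinc fingers and several homeodomains, expressed in neurons. The nucleus accumbens is the ventral part of the striatum, and most of its neurons are medium spiny neurons, GABA-releasing projection neurons that carry mainly the dopamine receptor D1 or D2.

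After filters 178387 nuclei and 320795096 unique molecular identifiers (UMIs, each 1 captured RNA molecule) remained, with 1767 to 7666 nuclei per animal. The members were counted in 849 UMIs (Hsf5), 8540 UMIs (Tent4a) and 57320 UMIs (Zfhx2). The library of male mate 2 stood apart: 6375 of its 12519 barcodes lay below 500 UMIs and were left out, and its kept nuclei had a median of 653 UMIs, against a median of 1583.75 over the 40 libraries. Medium spiny neuron-like nuclei held 9.29% of its UMIs, the lowest share of the 40. It also supplied 2239 of the 3379 nuclei (66.3%) of a glutamate neuron-like cluster led by Col5a2 and Fsip2, and 90.1% of its own 2485 glutamate neuron-like nuclei lay there. Some results that draw on this class are therefore also given without male mate 2, an alternative chosen after seeing the data. The others include that animal. Clusters with the markers of D1 (17.1% of nuclei), D2 (16.6%) and eccentric (8.35%) medium spiny neurons were found, as the labelled tissue would have, beside glutamate neuron-like nuclei (13.2%), a type that the striatum itself lacks. Libraries shared 0.110% to 2.22% of their barcode sequences in pairs, and the cause was not tested. Mates and peers did not differ past the threshold in kept nuclei, kept UMIs, median depth or the neuron-like share of UMIs. The lowest of these 4 permutation p values, two-sided with labels exchanged within sex, was that of the neuron-like share (79.6% ± 5.15 in mates, SD, n = 22, and 77.0% ± 7.02 in peers, n = 18; p = 0.141, adjusted p = 0.327).

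In mates Hsf5 averaged 3.10 ± 0.781 CPM, its UMIs per 1000000 UMIs of the animal (SD, n = 22), whereas peers averaged 2.10 ± 0.809 CPM (SD, n = 18). Female mates lay between 2.49 and 4.77 CPM with a median of 2.88, and female peers between 0.532 and 3.08 CPM with a median of 1.81. Male mates lay between 1.92 and 4.56 CPM with a median of 2.83, and male peers between 1.59 and 4.29 CPM with a median of 1.94. All 11 female mates were above the mean of the female peers, and 4 of them were above the highest female peer. In males the groups overlapped more, with 8 of 11 mates above the mean of the peers and 1 above the highest. The counts behind these levels were small, from 2 UMIs in female peer 1 to 41 UMIs. Counting error alone would give an SD of 0.632 CPM in mates and 0.553 CPM in peers, not far below the spread observed.

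In mates Tent4a averaged 29.0 ± 4.92 CPM (SD, n = 22), whereas peers averaged 23.8 ± 3.83 CPM (SD, n = 18). Female mates lay between 24.2 and 38.3 CPM with a median of 28.1, and female peers between 18.2 and 26.2 CPM with a median of 21.4. Male mates lay between 21.6 and 38.1 CPM with a median of 29.6, and male peers between 20.7 and 33.1 CPM with a median of 25.8. The female groups were nearly separate: 10 of 11 female mates exceeded the highest female peer, whereas in males 3 of 11 mates exceeded the highest peer. With 70 to 360 UMIs per animal, counting alone would give an SD of 1.94 CPM in mates, below the spread observed.

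In mates Zfhx2 averaged 195 ± 32.8 CPM (SD, n = 22), whereas peers averaged 163 ± 21.7 CPM (SD, n = 18). Female mates lay between 154 and 234 CPM with a median of 193, and female peers between 140 and 173 CPM with a median of 146. Male mates lay between 151 and 300 CPM with a median of 199, and male peers between 128 and 205 CPM with a median of 173. The highest value belonged to male mate 2, the library that stood apart. In females 8 of 11 mates, and in males 4 of 11, lay above the highest peer of their sex. Counting alone would give an SD of 5.01 CPM in mates, well below the spread observed.

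**Figure D1:**
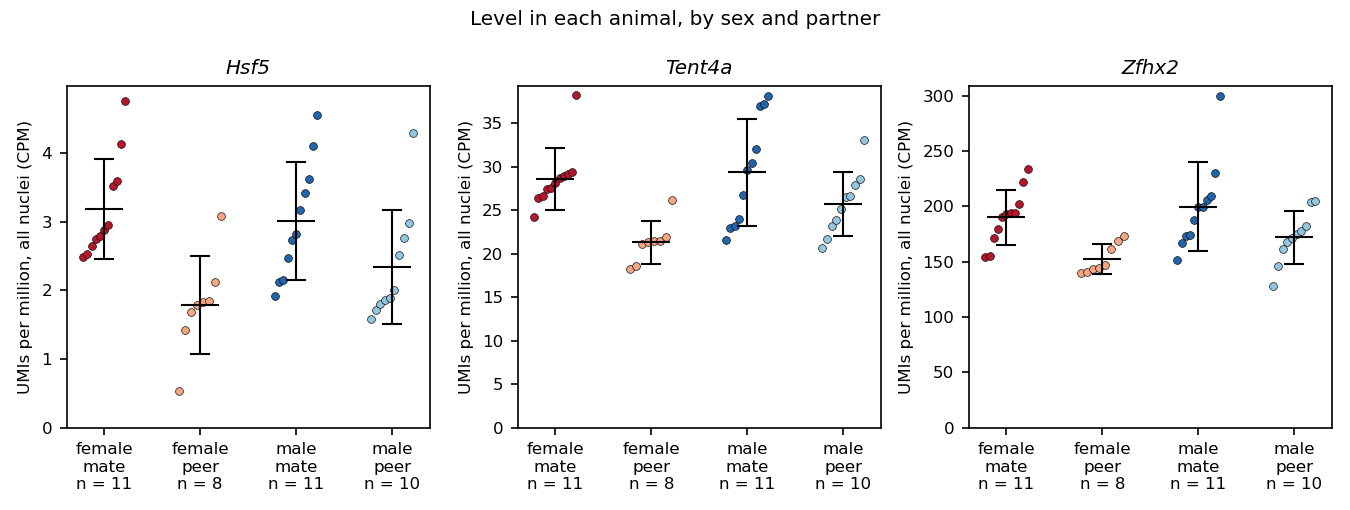
Level of Hsf5, Tent4a and Zfhx2 in CPM over all nuclei (vertical axes, from 0) for each of the 40 animals, by group; a point is 1 animal, the wide mark the group mean and the error bar 1 SD. All 11 female mates lie above the mean of the female peers for each gene, while male mates and male peers overlap more.

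On the log2 scale the fitted difference of mates over peers, averaged over the sexes, was 0.58 (SE 0.14) for Hsf5, 0.31 (SE 0.07) for Tent4a and 0.27 (SE 0.06) for Zfhx2. Over all 13696 genes 48.1% had a value above 0. Without male mate 2 the values were 0.55, 0.29 and 0.23. In females alone the differences were 0.82, 0.43 and 0.32, and in males alone 0.33, 0.18 and 0.21, in the same order of genes. The difference between the sexes in these values was tested and was not called for any of the 3 genes (0% of all genes called, 2.04% at an unadjusted p under 0.05). It was 0.48 for Hsf5 (SE 0.28, 95% interval -0.07 to 1.04, edgeR p = 0.0958, adjusted p = 1.00), 0.25 for Tent4a (SE 0.15, interval -0.04 to 0.54, p = 0.0935) and 0.11 for Zfhx2 (SE 0.13, interval -0.14 to 0.36, p = 0.390).

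The sex difference did not enter the choice of the genes and was tested in the same fit. None of the 3 was called for sex, against 0.0219% of all genes called by edgeR, 0.0365% called by DESeq2 and 8.37% at an unadjusted p under 0.05. Tent4a was lower in females by the fit (log2 fold change -0.15, SE 0.07, edgeR p = 0.0414, adjusted p = 0.588), where females averaged 25.6 ± 4.82 CPM (SD, n = 19) against 27.6 ± 5.33 CPM (SD, n = 21) for males. Zfhx2 gave -0.13 (SE 0.06, p = 0.0525, adjusted p = 0.593) and Hsf5 -0.16 (SE 0.14, p = 0.260, adjusted p = 0.741). These differences were smaller than the SD between animals of one sex.

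The nuclei fell into 29 clusters, of which 23 were given 14 class names from marker genes. The somatostatin neuron-like class joins a cluster of 4978 nuclei, in which Kcnc2 and Pvalb lead ahead of Sst, to one of 1331 nuclei led by Npy, Nos1 and Sst. In the first of these the markers of somatostatin neurons had a mean log2 fold over other nuclei of 2.07 and those of parvalbumin neurons 1.66, so both marker lists are raised there. The eccentric medium spiny class joins a cluster of 10123 nuclei led by Foxp2 and Otof to one of 4764 nuclei led by Col14a1 and Shisa8. In the second the eccentric markers had a mean log2 fold of 1.82. Every other list used for names, that of medium spiny neurons of any kind included, had at most 0.0 there. The D1 class also holds a cluster of 2765 nuclei led by Dlk1 and Pdyn. In it the D1 markers had a mean log2 fold of 0.9 and those of medium spiny neurons of any kind -0.1. Of the D1 clusters it had the highest mean of Hsf5 (5.56 ± 11.4 CPM) and of Tent4a (34.8 ± 17.1 CPM, SD, n = 36). The members were not used in clustering. Zfhx2 was a gene of neurons foremost. Among the named classes it had a plateau at D1 (215 ± 34.4 CPM, SD, n = 40), D2 (214 ± 36.5), eccentric medium spiny (211 ± 34.2) and glutamate neuron-like nuclei (209 ± 36.1). Microglia-like nuclei followed at 140 ± 66.1 CPM (n = 38), then cholinergic, immature, other GABA and somatostatin neuron-like nuclei between 137 and 108 CPM. Oligodendrocyte precursor-like, vascular-like and astrocyte-like nuclei were at 80.4, 59.7 and 57.9 CPM, and oligodendrocyte-like nuclei came last at 30.3 ± 20.3 CPM. Between neighbours in this order, compared within animals, only the step from astrocyte-like to oligodendrocyte-like nuclei (29.1 ± 25.3 CPM, SD, higher in 37 of 39 animals) exceeded its SD. The step from glutamate neuron-like to microglia-like nuclei was 64.2 ± 69.1 CPM, with the first higher in 32 of 38 animals. The glutamate class leaves out an unnamed cluster of 9277 nuclei led by Stmn1 and Cck, whose best marker list was that of glutamate neurons (mean log2 fold 1.56). In that cluster Zfhx2 was at 98.3 ± 22.3 CPM and Hsf5 at 0.749 ± 1.46 CPM (SD, n = 39). At a clustering resolution of 2, a cluster of 8037 nuclei led by Ccn3 and Cck was named glutamate neuron-like.

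Tent4a was spread over more classes. The highest were glutamate neuron-like (31.1 ± 6.75 CPM, SD, n = 40), eccentric medium spiny (30.6 ± 8.39), D1 (29.5 ± 8.64), cholinergic (29.2 ± 20.6, n = 26) and D2 neuron-like nuclei (26.2 ± 6.27). No step between neighbours in this order, or further down, exceeded its SD within animals. Classes further apart in the order were not compared. Astrocyte-like nuclei were lowest at 8.85 ± 5.68 CPM (n = 39), next to oligodendrocyte-like nuclei at 9.75 ± 6.94 CPM. Hsf5 was highest in D1 (3.81 ± 1.94 CPM) and D2 nuclei (3.77 ± 1.92), then in glutamate neuron-like (2.86 ± 3.60) and eccentric medium spiny nuclei (2.23 ± 2.16). In the other classes its mean was at most 1.51 CPM, and most animals had no Hsf5 UMI there. Vascular-like nuclei had 0 Hsf5 UMIs, with an upper 95% counting limit of 1.80 CPM. No pair of neighbours in the order for Hsf5 differed beyond its SD.

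**Figure D2:**
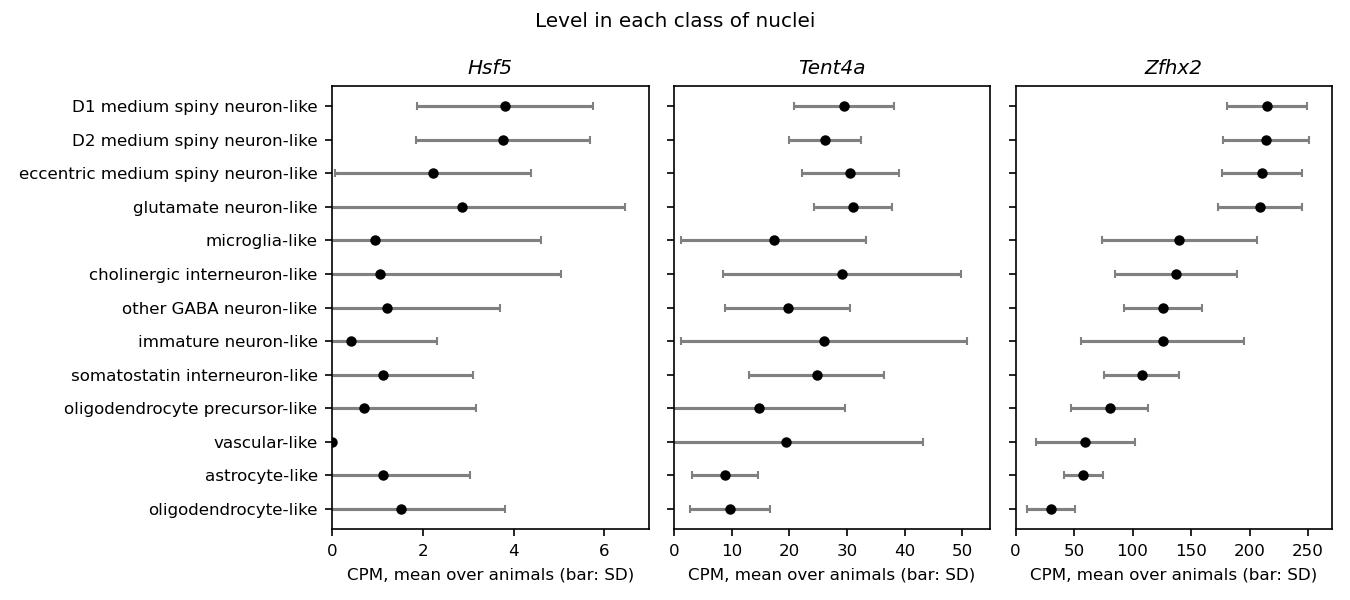
Mean level in CPM over animals (horizontal axes; bars are 1 SD, cut at 0) of each gene in 13 classes of nuclei, ordered by Zfhx2. D1, D2, eccentric medium spiny and glutamate neuron-like nuclei are the 4 highest classes for Hsf5 and Zfhx2, cholinergic neuron-like nuclei (29.2 CPM) lie above D2 nuclei (26.2 CPM) for Tent4a, and astrocyte-like and oligodendrocyte-like nuclei are lowest for Tent4a and Zfhx2.

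A share of nuclei with at least 1 UMI depends on depth, so it is given with each nucleus thinned to 1000 UMIs, and shallower nuclei were left out. Zfhx2 was found in 19.6% of D1 nuclei (37.4% before thinning, median 2111 UMIs) and 2.41% of oligodendrocyte-like nuclei (2.02%, median 665 UMIs). Tent4a was found in 2.97% of D1 nuclei (6.58% before thinning) and 0.969% of oligodendrocyte-like nuclei (0.753%). Hsf5 was found in 0.404% of D1 nuclei (0.879% before thinning, 95% Wilson interval 0.780% to 0.990%) and 0.149% of oligodendrocyte-like nuclei (0.121%, 0.0736% to 0.200%). If the share in oligodendrocyte-like nuclei is taken as the level that free RNA can give, the thinned share in D1 nuclei was above it for each of the 3 genes. For Hsf5 that level rests on few positive nuclei among 1979. Thinned shares over all nuclei were 0.338% ± 0.0968 in mates and 0.231% ± 0.0868 in peers for Hsf5, 2.90% ± 0.503 and 2.38% ± 0.402 for Tent4a, and 18.2% ± 2.40 and 15.5% ± 2.28 for Zfhx2 (SD, n = 22 and 18). For each gene 19 of 22 mates were above the mean of the peers.

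Levels also varied between clusters of one class. Zfhx2 was highest in a small glutamate neuron-like cluster led by Nr4a2 and Ntng2, at 384 ± 119 CPM (SD, n = 22), and was at 191 ± 35.8 CPM in another led by Rxfp2 and Col5a1; the first was higher in 22 of 22 animals with both. For Tent4a that second cluster was the highest of all clusters, at 41.7 ± 13.3 CPM (n = 39). Among somatostatin neuron-like nuclei Tent4a was at 38.6 ± 22.5 CPM in the cluster led by Npy and Nos1 and at 21.6 ± 13.6 CPM in the other, and was higher in 25 of 32 animals. The eccentric cluster led by Foxp2 and Otof had Hsf5 at 2.83 ± 3.09 CPM, and the one led by Col14a1 and Shisa8 at 0.315 ± 1.15 CPM, the first higher in 27 of 39 animals. These comparisons were picked from the clusters of each class as the highest and lowest, and have no test. Unnamed clusters did not enter them.

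Nearly all of the difference between mates and peers came from neurons, which also hold most of the RNA of these genes. Each animal's CPM was split into the part from each class, and the sexes were weighted equally. Neuron-like classes held 96.4% of the mate minus peer difference of Hsf5, 95.3% of that of Tent4a and 94.0% of that of Zfhx2. They held 88.8%, 86.1% and 89.1% of the UMIs of the 3 genes. The 6 non-neuronal classes together held -3.21%, -0.265% and 0.273% of the differences, and the rest lay in nuclei without a class name. These parts also depend on the non-neuronal share of UMIs, 10.3% in mates and 11.3% in peers. By level within non-neuronal nuclei, the log2 ratio of mates to peers was -0.27 for Hsf5, 0.08 for Tent4a and 0.17 for Zfhx2. In neuron-like nuclei it was 0.61, 0.30 and 0.24. The non-neuronal Zfhx2 level was 63.5 ± 15.3 CPM in mates and 56.6 ± 16.6 CPM in peers (SD).

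For Hsf5, 40.4% of the difference lay in D2, 23.4% in D1 and 22.6% in glutamate neuron-like nuclei. For Tent4a, D1 nuclei held 36.5%, D2 21.4%, glutamate neuron-like 21.0% and eccentric medium spiny nuclei 10.1%. For Zfhx2, 29.9% lay in D2, 26.5% in glutamate neuron-like and 25.0% in D1 nuclei. The glutamate share was smaller without male mate 2, with the largest fall for Zfhx2 and the smallest for Hsf5. Without that animal glutamate neuron-like nuclei held 17.2% of the difference of Hsf5, 12.4% of that of Tent4a and 13.2% of that of Zfhx2. D2 nuclei then held 46.1%, 26.7% and 40.2%, and D1 nuclei 27.5%, 44.7% and 37.0%, in the same order of genes. Neuron-like classes as a whole held 103%, 103% and 106%. Values past 100 were balanced by classes or unnamed nuclei that contributed fewer CPM of the animal's total in mates. Unnamed nuclei held -3.52% of the difference of Tent4a and -7.65% of that of Zfhx2. The levels within them were still higher in mates, at 27.1 ± 8.26 against 22.7 ± 9.07 CPM (Tent4a) and 134 ± 25.7 against 119 ± 20.9 CPM (Zfhx2; SD, n = 21 and 18). Each difference divides further into a part from levels within classes and a part from the share of each class in the animal's UMIs. The level part was 92.7% for Hsf5, 95.6% for Tent4a and 88.8% for Zfhx2 (89.0%, 96.3% and 84.0% without male mate 2). With every animal given the same mix of classes, the log2 ratio of mates to peers was 0.46 for Hsf5, 0.29 for Tent4a and 0.21 for Zfhx2, against 0.59, 0.30 and 0.27 as measured. At that fixed mix Hsf5 was at 3.11 ± 0.831 CPM in mates and 2.31 ± 1.55 CPM in peers (SD, n = 22 and 18), and the spread in peers rests on male peer 5. Without that animal, an alternative chosen after seeing the data, the peers had an SD of 0.661 CPM (n = 17), and the log2 ratio at the fixed mix was 0.66, equal to the 0.66 measured in the same 39 animals.

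**Figure D3:**
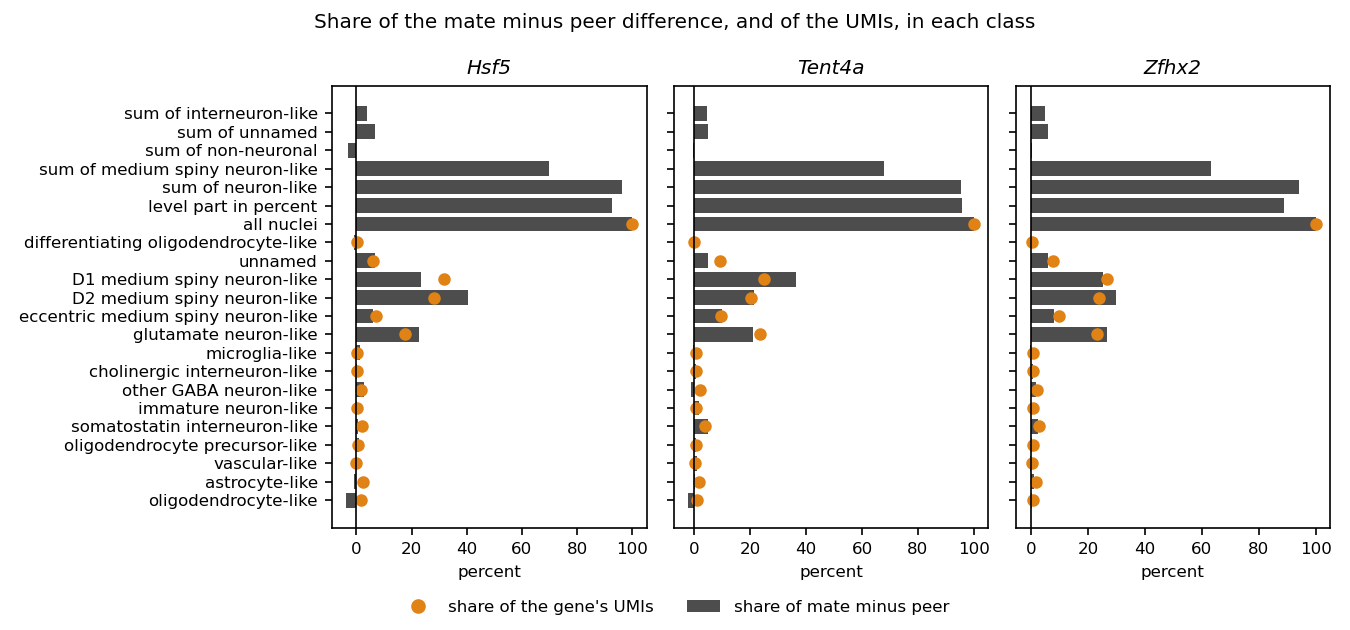
Share of the mate minus peer difference held by each class of nuclei (bars, percent of the difference over all nuclei) and share of the gene's UMIs in that class (points). D1, D2 and glutamate neuron-like nuclei hold the largest bars for each gene with all 40 animals; the bar of glutamate neuron-like nuclei for Zfhx2, 26.5%, is 13.2% without male mate 2. Bars below 0 mark classes that contribute more CPM in peers.

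Within classes the genes could be followed as far as their counts allowed. Of the 14 classes 12 had enough animals to be fitted, and the filter on low counts was passed there by Tent4a in 5, by Zfhx2 in 11 and by Hsf5 in none. All 5 Tent4a values and all 11 Zfhx2 values were higher in mates. The class counts are parts of the sums that chose the genes, so these tallies are a description and no separate support. In the same fits 50.2% of 81292 pairs of gene and class had a log2 fold change above 0. Without the filter the value was above 0 for Tent4a in 10, for Zfhx2 in 12 and for Hsf5 in 8 of the 12 classes, beside 51.1% of 185691 pairs of gene and class. No pair (0%) was called by edgeR for pairing, and 5.18% had an unadjusted p under 0.05. For sex, where 0.0234% of pairs were called and 4.75% had an unadjusted p under 0.05, no value of the members was called; Tent4a in D1 nuclei, lower in females (log2 fold change -0.22, SE 0.11, edgeR p = 0.0448, adjusted p = 1.00), was the 1 of 16 with an unadjusted p under 0.05.

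Tent4a in D1 nuclei was at 33.2 ± 6.89 CPM in mates and 25.1 ± 8.62 CPM in peers (SD, n = 22 and 18), a log2 fold change of 0.42 (SE 0.11), with 21 of 22 mates above the mean of the peers. In D2 nuclei it was at 28.0 ± 6.42 and 24.0 ± 5.44 CPM (0.20, SE 0.10). By sex, the D2 means were 29.5 CPM in female mates against 20.8 in female peers, and 26.5 against 26.6 in males. This difference between the sexes (log2 0.46, SE 0.20) had an edgeR p of 0.0284 and an adjusted p of 1.00, so it was not called. It was the 1 of 16 values of Tent4a and Zfhx2 with an unadjusted p under 0.05, beside 2.83% of all pairs of gene and class. For Tent4a the same quantity was above 0 in 3 of 5 classes, at 0.42 in D1 and 0.44 in eccentric medium spiny nuclei besides D2, and was -0.02 in glutamate and -0.34 in somatostatin neuron-like nuclei. For Zfhx2 it was above 0 in 8 of 11 classes. In glutamate neuron-like nuclei Tent4a was at 32.5 ± 6.62 in mates and 29.5 ± 6.73 CPM in peers (0.20, SE 0.09), with a gap of like size in both sexes. Eccentric medium spiny nuclei gave 0.27 (SE 0.12). Somatostatin neuron-like nuclei gave 0.48 (SE 0.20).

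Zfhx2 had a log2 fold change of 0.16 (SE 0.06) in D1, 0.21 (SE 0.06) in D2, 0.24 (SE 0.07) in glutamate and 0.16 (SE 0.07) in eccentric medium spiny neuron-like nuclei. In glutamate neuron-like nuclei the level was 223 ± 35.7 CPM in mates and 191 ± 29.0 in peers (SD, n = 22 and 18), and 19 of 22 mates lay above the mean of the peers. Without male mate 2 these mates were at 217 ± 24.0 CPM (n = 21), and the log2 fold change was 0.20. Among the 11 classes in which Zfhx2 passed the filter, the highest fold change was that of the somatostatin neuron-like class, at 0.37 (SE 0.11, 120 ± 31.5 and 93.0 ± 26.2 CPM). That class also holds the cluster with Pvalb. Cholinergic neuron-like nuclei, where Zfhx2 did not pass, gave 0.46 (SE 0.22, 14 mates and 12 peers) in the fit without the filter. Other GABA neuron-like nuclei gave 0.22 (SE 0.12) and immature neuron-like nuclei 0.22 (SE 0.19). Among glia the values were 0.19 (SE 0.12) in astrocyte-like, 0.35 (SE 0.25) in oligodendrocyte-like, 0.09 (SE 0.19) in oligodendrocyte precursor-like and 0.07 (SE 0.20) in microglia-like nuclei.

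**Figure D4:**
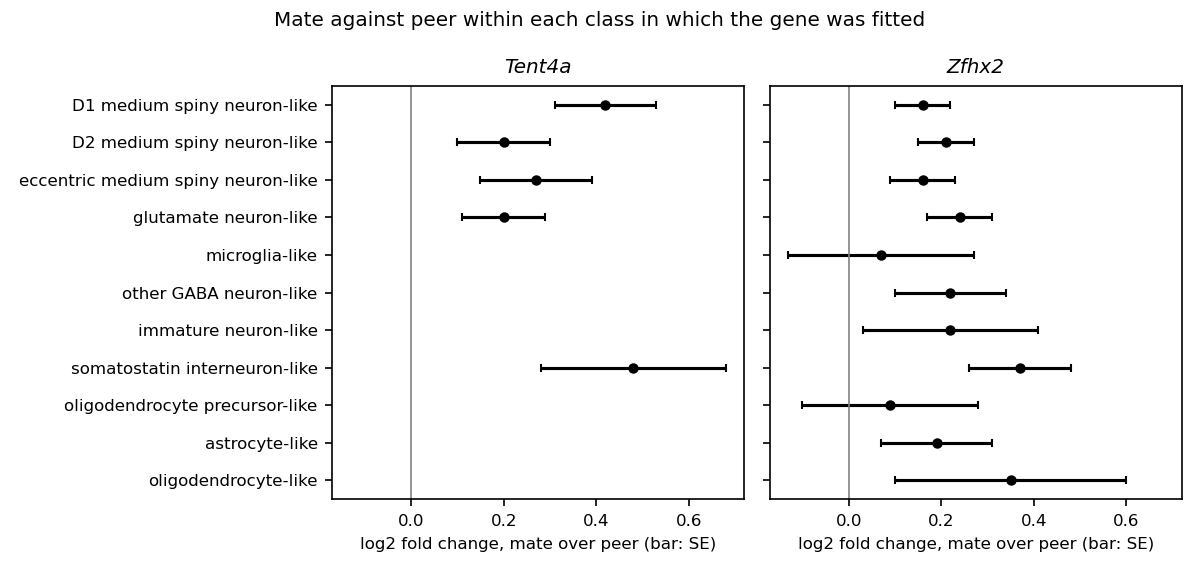
Fitted log2 fold change of mates over peers (horizontal axes; bars are 1 SE) for Tent4a and Zfhx2 in each class in which the gene passed the filter on low counts. All 5 values for Tent4a and all 11 for Zfhx2 lie above 0, in counts that are parts of the sums that chose the genes.

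For Hsf5 the classes are given by summed counts. D2 nuclei held 167 Hsf5 UMIs in mates and 73 in peers (pooled 4.43 and 2.76 CPM), and 21 of 22 mates were above the mean of the peers. D1 nuclei held 170 and 100 UMIs (4.14 and 3.35 CPM). Glutamate neuron-like nuclei held 100 and 50 UMIs (2.76 and 1.78 CPM). By sex the mean in glutamate neuron-like nuclei was 3.34 CPM in female mates and 1.02 in female peers, and 2.50 in male mates and 4.19 in male peers. The last of these rests on male peer 5, in which 1 UMI among 20 nuclei gives 22.7 CPM; without that animal, an alternative chosen after seeing the data, the male peers were at 2.13 ± 1.07 CPM (SD, n = 9).

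Whether a class stood apart from the rest of the same animal was tested with a ratio. The log2 ratio of the level in a class to that in all other nuclei of the animal was compared between mates and peers, over 19 pairs of gene and class with enough counts (two-sided permutation test within sex, 100000 resamples). No pair was called after adjustment, and none had an unadjusted p under 0.05; without male mate 2 Tent4a in D1 nuclei had one of 0.0497 (permutation, difference 0.26, adjusted p = 0.536). The lowest p values were those of Tent4a, where the mate minus peer difference was -0.19 in glutamate neuron-like nuclei (p = 0.0526, adjusted p = 0.524) and 0.25 in D1 nuclei (p = 0.0551, adjusted p = 0.524). For Zfhx2 the 12 classes tested had adjusted p values of at least 0.609, and for Hsf5 the D1 and D2 nuclei at least 0.834. The difference between mates and peers was thus not shown to be particular to any class.

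The 3 genes also varied together between animals of the same group. After the mean of each of the 4 groups was removed from log2 CPM, Hsf5 and Tent4a had a Pearson r of 0.58 and a Spearman rho of 0.62 over 40 animals (permutation within groups, adjusted p = 0.000135 for both, over 3 pairs). Tent4a and Zfhx2 had r = 0.62 and rho = 0.62 (adjusted p = 0.000135 for both), and Hsf5 and Zfhx2 r = 0.40 (adjusted p = 0.00581) and rho = 0.48 (adjusted p = 0.00317). Without the 2 animals farthest from the median of the first gene r was 0.57, 0.64 and 0.47, in the same order of pairs. All values come from the same libraries and share their depth. The 3 genes were also chosen together by 1 contrast, and genes that vary together between animals can reach its lowest p values together. Removing the group means does not take this out, so these p values do not stand apart from the choice. Neither the median UMIs per nucleus nor the neuron-like share of UMIs was related to any of the 3 genes past the threshold in 6 comparisons, with a lowest adjusted p of 0.449 by permutation. Zfhx2 and depth had r = -0.35, which was -0.02 without male mate 2 and female peer 1.

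**Figure D5:**
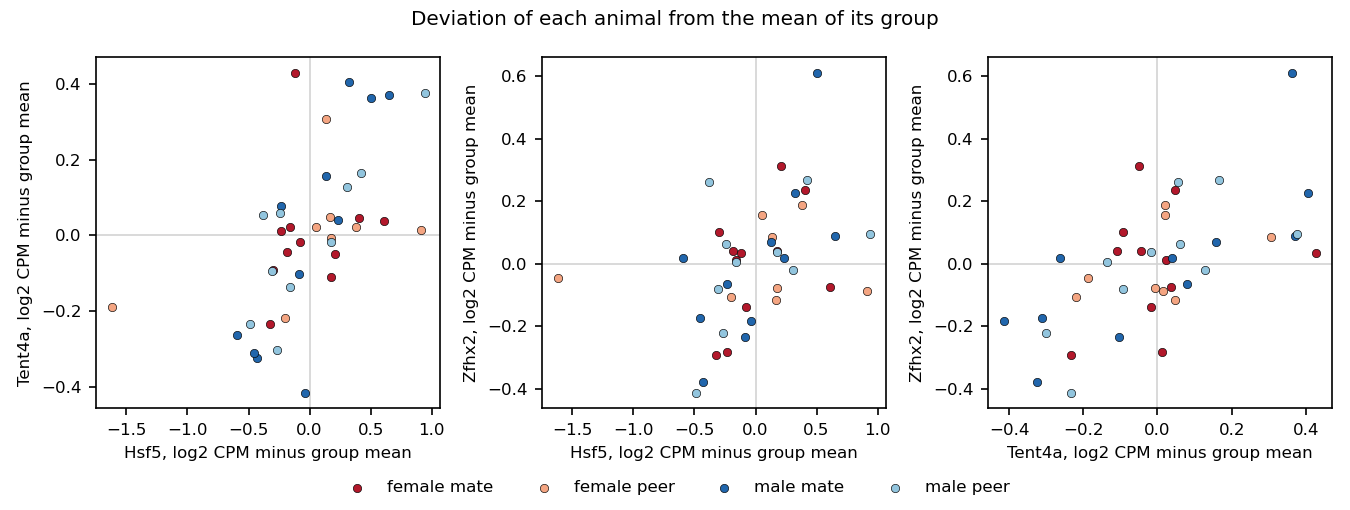
Deviation of each of the 40 animals from the mean of its group in log2 CPM, for each pair of the 3 genes; a point is 1 animal, coloured by group. The points rise from lower left to upper right in each panel, with Pearson r of 0.58, 0.40 and 0.62 from left to right.

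For scale, the same correlation was taken with each of the other 13695 genes, with 0.5 UMI added to each count. Those genes were not chosen by a contrast as the members were, so the scale does not allow for the choice. The median r was 0.02 with Hsf5, -0.03 with Tent4a and 0.03 with Zfhx2. With Hsf5, 16 genes (0.117%) had an r at least as high as that of Tent4a and 486 (3.55%) at least as high as that of Zfhx2. With Tent4a, 153 genes (1.12%) reached the r of Hsf5 and 103 (0.752%) that of Zfhx2. With Zfhx2, 1572 genes (11.5%) reached the r of Hsf5 and 310 (2.26%) that of Tent4a, so many genes went with Zfhx2 at least as closely as Hsf5 did.

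The level of Zfhx2 also went together in separate nuclei of the same animal. Its deviation from the group mean in medium spiny neuron-like nuclei and that in glutamate neuron-like nuclei had r = 0.57 and rho = 0.58 (permutation within groups, adjusted p = 0.000540 for both; r = 0.49 without the 2 animals farthest from the median, and r = 0.52 without male mate 2). For Tent4a r was 0.32 (rho 0.29, adjusted p = 0.0887 and 0.136), and for Hsf5 0.28 (rho 0.24, adjusted p = 0.0995 and 0.145). What part free RNA of a library has in these relations was not tested.

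Genes of the same families and pathways were read from lists, each beside 514 (3.75%) of 13696 genes higher and 504 (3.68%) lower in mates at an unadjusted p under 0.05, a median log2 fold change of -0.01, and 0 called. The list of heat shock factors and their binding partner had 4 tested genes, Hsf5, which stands by its choice, Hsf1, Hsf4 and the binding partner Hsbp1. None of the 3 others had an unadjusted p under 0.05. Hsf1, the main regulator of the heat shock response, was at 96.4 ± 10.8 CPM in mates and 90.8 ± 14.1 in peers (log2 fold change 0.09, SE 0.05). None of 4 heat shock response genes had one either, among them Hspa8, a constitutive chaperone (-0.07, SE 0.12), and Hsph1 (0.12, SE 0.09). Of the meiosis and germ line genes 8 were in the files with too few counts to be tested, and the tested pair, Sycp1 and Sycp3 of the synaptonemal complex, had -0.32 (SE 0.23) and -0.14 (SE 0.22). The median log2 fold changes of these lists were 0.07, 0.02 and -0.23, and 0.05 for the first list without Hsf5.

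Among 10 terminal nucleotidyltransferases and poly(A) polymerases Tent4a stands by its choice. Of the 9 others 1 had an unadjusted p under 0.05, Papola, the main nuclear poly(A) polymerase (0.08, SE 0.04, edgeR p = 0.0454, adjusted p = 0.670), and their median was -0.01. Tent4b, the closest relative of Tent4a, was at 42.1 ± 6.12 CPM in mates and 40.2 ± 5.01 in peers (0.07, SE 0.06). Zcchc14, an RNA-binding partner of the TENT4 enzymes, was at 80.7 ± 11.8 and 73.4 ± 13.5 CPM (0.15, SE 0.07, p = 0.0567, adjusted p = 0.673) in a list of 6 genes with none under 0.05 and a median of 0.03. Of 12 deadenylation genes, Pan2, the catalytic subunit of the PAN2-PAN3 deadenylase, had an unadjusted p under 0.05 (0.19, SE 0.06, p = 0.00203, adjusted p = 0.653); the list's median was 0.04. Among 8 zinc finger homeobox genes Zfhx2 stands by its choice. Of the 7 others 1 had an unadjusted p under 0.05, Zhx3 (0.15, SE 0.07, edgeR p = 0.0463, adjusted p = 0.670), and their median was 0.09. Zfhx3 and Zfhx4, the relatives of Zfhx2, had 0.09 (SE 0.11) and 0.15 (SE 0.10).

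In the RefSeq annotation of assembly MicOch1.0, used here for names and gene order, the tested genes nearest to Tent4a were Adcy2 (log2 fold change 0.07, SE 0.10), Srd5a1 (0.01, SE 0.14) and Nsun2 (0.02, SE 0.04). None of them had an unadjusted p under 0.05. Rnf43, a neighbour of Hsf5, had too few counts to be tested, and no neighbour of Zfhx2 could be set, since the table holds it on an unplaced scaffold.

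Across the 13 classes the genes most like Hsf5 in mean level were Med8 (Pearson r of log2 CPM 0.936), Klhdc1, Fbxl18, Mmaa and Abca15. Those most like Tent4a were Plxna2 (0.953), Smyd5, Cacnb3, a gene without a symbol (ENSMOCG00000012032) and Ttl, and those most like Zfhx2 were Pak1ip1 (0.971), Exosc7, Slx1b, Prmt7 and Trmt1. Among the members, Tent4a and Zfhx2 had r = 0.856, Hsf5 and Zfhx2 0.579, and Hsf5 and Tent4a 0.349. The classes share libraries and depth, so these values describe likeness only. Outside D1, D2, glutamate and eccentric medium spiny neuron-like nuclei each Hsf5 mean rests on at most 20 UMIs. The values for Hsf5 are therefore open to large counting error. None of these 15 genes had an unadjusted p under 0.05 for pairing, with log2 fold changes from -0.01 (Mmaa) to 0.16 (Exosc7).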

How the data were processed

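Nuclei of each animal were isolated and sequenced separately by droplet methods, per the labels. The authors deposited raw UMI counts per gene and barcode, made with Cell Ranger 3.1.0 per the submitters' processing notes; the genome build is not given in the sources used here. Barcodes with under 500 UMIs or over 5% mitochondrial UMIs (13 genes) were left out, and 7608 doublets (4.09%) were removed at an assumed rate of 0.8% per 1000 barcodes. Nuclei were clustered by the Leiden method (30 components of 2000 variable genes, 15 neighbours, resolution 1) and named from 17 lists of markers, using 104 of 113 marker genes; a name needed at least 3 markers at a log2 fold of at least 1 against other nuclei. A name was also withheld where markers of another lineage were raised or led the cluster. Clusters that stayed unnamed held 13.3% of nuclei.

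Counts were summed per animal, or per animal and class with at least 20 nuclei, and fitted over all genes with edgeR 4.0.16 (R 4.3.3, TMM factors, filterByExpr, quasi-likelihood), with 4 groups of sex and partner. Replicate numbers only name animals. The fit takes animals as independent; neighbouring label numbers (1 and 2, 3 and 4, and so on) always hold animals of 1 partner type, and the labels do not say whether those animals were housed together. A fit with these 20 pairs as a random effect (limma 3.58.1, voom) was added after seeing the data. CPM are UMIs per 1000000 UMIs of the animal, or of its class. Alternatives were DESeq2 1.42.0, no TMM, no filter, doublets kept, at least 1000 UMIs, label-number blocks and leaving out each animal. The members, lists and tests were chosen with earlier results of these data known; the relation across all genes, that between separate nuclei and the contrasts of clusters were added after values were seen. Named genes are the members, up to 4 others per list with the lowest p, RefSeq neighbours and the 5 genes most alike. Tent4b and Zfhx3, relatives of members, and the genes next to the members by p were named outside this rule, after their values were seen. Wilson and Poisson intervals cover counting error only; intervals of fitted differences come from the edgeR standard errors over animals.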

Additional observations from a re-analysis of the deposited data

Results flagged for a closer look

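In groups of 4 to 10 animals, the gap between an extreme animal and its nearest neighbour was compared with the range of the group. The level was one that chance exceeds in about 1 in 20 groups. In all, 30 groups of peers were tested and 4 stood out. The groups of mates, with 11 animals each, were too large for this rule and were not screened, so extreme mates could not be flagged. Male peer 5 had Hsf5 at 4.29 CPM over all nuclei, where the remaining male peers lay between 1.59 and 2.99 CPM. Female peer 5 had Tent4a at 26.2 CPM over all nuclei, where the remaining female peers lay between 18.2 and 21.9 CPM. Hsf5 in eccentric medium spiny neuron-like nuclei was at 11.8 CPM in female peer 2, from 5 UMIs, with the others between 0 and 4.58 CPM. Hsf5 in glutamate neuron-like nuclei was at 22.7 CPM in male peer 5, from 1 UMI, with the others between 0.835 and 3.79 CPM. Without male peer 5 the pairing difference of Hsf5 over all nuclei was 0.65, against 0.58 with it, and without female peer 5 that of Tent4a was 0.34, against 0.31. Other animals moved it the other way when left out. The lowest values were 0.53 for Hsf5 (without female peer 1), 0.28 for Tent4a (without female mate 9) and 0.23 for Zfhx2 (without male mate 2).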

How the results depend on the processing

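Over all nuclei, the differences by partner and by sex, and the difference between the sexes, kept their direction for all 3 genes under every setting run. The genes were chosen by the partner difference, so its kept direction is no support of its own. No adjusted p for sex or for the difference between the sexes was under 0.05; the lowest was 0.398, for Tent4a by sex without female peer 5. Leaving out each of the 40 animals in turn, the partner difference ranged from 0.53 to 0.65 for Hsf5, from 0.28 to 0.34 for Tent4a and from 0.23 (without male mate 2) to 0.28 for Zfhx2 (log2). In the same order of genes, the sex difference (female minus male) ranged from -0.22 to -0.09 (without male peer 5), from -0.18 to -0.13 and from -0.15 to -0.09 (without male mate 2). The difference between the sexes in the partner difference ranged from 0.35 (without male peer 5) to 0.61, from 0.20 to 0.32 and from 0.08 to 0.19 (without male mate 2). With label-number blocks as a covariate Zfhx2 was at 0.21 and ranked 17, and 1 gene, 1700094D03Rik, was called by partner, as by DESeq2, against 0 without the blocks. With equal weight per class the log2 ratio at a fixed class mix was 0.41 for Hsf5, 0.35 for Tent4a and 0.23 for Zfhx2. With a prior of 2 UMIs 3 class contrasts changed sign, none of them called: Tent4a in eccentric medium spiny nuclei to -0.03, and Zfhx2 in astrocyte-like nuclei to -0.04 and in immature neuron-like nuclei to -0.03. At a fixed class mix the relations between animals had r = 0.61 (Hsf5 and Tent4a), 0.35 (Hsf5 and Zfhx2) and 0.48 (Tent4a and Zfhx2). Without male mate 2 the relations over all nuclei had r = 0.56, 0.36 and 0.57, and the log2 ratio at a fixed class mix was 0.42, 0.27 and 0.18 (Hsf5, Tent4a, Zfhx2). Depth limits Hsf5 most: it passed the filter in no class, so its class values rest on summed counts. Replicate numbers do not pair animals. The 20 pairs of neighbouring label numbers (11 of a female and a male mate, 4 of female peers, 5 of male peers) were used in alternatives chosen after seeing the data. Their within-pair correlation after removal of group means was 0.15 for Hsf5, 0.29 for Tent4a and 0.33 for Zfhx2, with permutation p values of 0.462, 0.172 and 0.157 (adjusted p of at least 0.258). With the pairs as a random effect in limma the partner differences were 0.58, 0.29 and 0.26, and over pair means the relations had r = 0.63 (Hsf5 and Tent4a), 0.55 (Hsf5 and Zfhx2) and 0.61 (Tent4a and Zfhx2), with permutation adjusted p values of 0.00294, 0.00732 and 0.0122.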
